A study of Bos taurus with 16 samples.

Results

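The corpus luteum of Japanese Black cows was compared between days 20 to 25 of pregnancy and days 10 to 12 of the estrous cycle. The members are 8 of the 16 arrays of the series, chosen by their labelled group, with 4 arrays of each group. The other 8 arrays hold glands from days 40 to 45 and days 150 to 160 of pregnancy, and entered the same statistical model, where they add to the estimate of the spread between samples and give the later stages set beside the results. Total RNA was labelled with Cy3 and hybridised to 1-colour Agilent bovine oligonucleotide arrays on 2 slides, and each slide held 2 arrays of every group. Both groups are whole glands of the same breed with no stated treatment, and they differ in the age of the gland as well as in pregnancy, so that these cannot be told apart. The arrays of a group also had the same positions on both slides, so group and position cannot be told apart either. The labels number the arrays of a group from 1 to 4 and do not say whether each came from a different cow, so the p-values measure the spread between these samples, which may be technical.

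The corpus luteum forms from the ovulated follicle and secretes progesterone, which keeps the uterus receptive to the embryo. In a non-pregnant cow, prostaglandin F2α from the uterus ends its life. In a pregnant ruminant the conceptus secretes interferon tau, a type I interferon that blocks the uterine prostaglandin signal and induces interferon-stimulated genes in the uterus, in blood leukocytes and in the ovary. The gland is densely vascular and, besides its steroidogenic cells, holds endothelial cells, fibroblasts, macrophages and lymphocytes. In whole tissue, fewer cells of a type and less RNA per cell cannot be told apart.

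A level below is the log2 signal of a probe relative to the 75th percentile of its array, so that 0 is the signal that 1 spot in 4 exceeds. On the 8 arrays that percentile was a signal of 2020 to 4288, and 73.0 to 79.6% of the spots were well above background. The glands carried their defining transcripts. STAR, which moves cholesterol into mitochondria, lay between 7.30 and 7.94 on the days 20-25 arrays and between 6.87 and 8.06 on the cyclic arrays. CYP11A1, which cleaves the cholesterol side chain, lay between 6.08 and 6.65 on days 20-25 and between 6.13 and 6.66 in cyclic glands.

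One array stood apart. Replicate 4 of days 20-25 had a contiguous dim area near its centre, which held 1593 spots or 10.5% of its probes. There the median departure of 25 neighbouring spots from their probes' medians over the 16 arrays reached -5.34 on the log2 scale. No other array had more than 4 spots in such an area, and replicate 1 of the cyclic group had 82 spots in a bright one. Of 133 tested spots on replicate 4 that lay more than 3 log2 units under their probe's median, 127 were inside the dim area. Scaling on the 75th percentile raised the other spots of that array by 0.18 against a scaling over evenly hybridised probes. Every result was therefore computed a second time with the uneven areas of all arrays left out and the scaling taken over the 13497 probes that were even on all 16 arrays. This setting was chosen after seeing the data and is called here the fit without uneven areas.

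**Figure D1:**
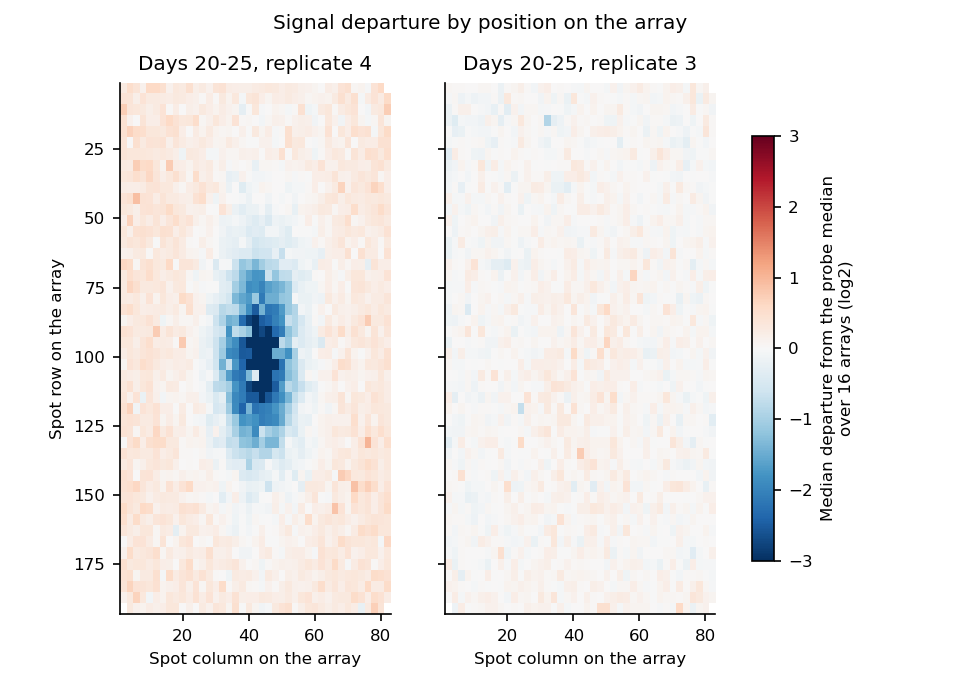
Median departure of the tested spots from their probe's median over the 16 arrays (log2, colour), in bins of neighbouring spots, by spot column and row on 2 of the days 20-25 arrays. Replicate 4 has a dark ellipse of 1593 dim spots near its centre, and replicate 3, on the same slide, has none.

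Of 11805 probes tested, 83 (0.703%) passed an adjusted p under 0.05 in limma with slide as a block, 69 of them higher on days 20-25 (0.584%) and 14 lower (0.119%). The groups did not overlap for 78 of the 83, against 7.49% of all tested probes (5.79% higher and 1.7% lower on days 20-25). The 83 were selected on these same arrays, so their separation is not separate evidence of a difference. An unadjusted p under 0.05 was found for 16.3% of all probes, 11.9% higher and 4.46% lower. Of the 5867 genes with a symbol, each represented by its brightest probe, 0.699% were called, 15.2% had an unadjusted p under 0.05 and 6.75% had groups that did not overlap. All 83 changed in the same direction within slide 1 and within slide 2, which the same selection favours. Of the 14 falls, 10 were well above background on fewer than 3 days 20-25 arrays and 7 on none, so their sizes were not ranked against those of the rises, which had a median log2 change of 1.00. Without uneven areas 59 probes passed, and 54 were called in both fits, 42 of the rises and 12 of the falls. Of the 83, only 2 falls had their replicate 4 spot in an uneven area, chromogranin B and a hemoglobin-like transcript.

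These calls rested on the spread pooled over all 4 groups. With only the 8 arrays and slide as a block, 0 probes passed in limma, although 1583 had an unadjusted p under 0.05, against 1927 in the fit to 16 arrays. Leaving out a single array gave 39, 14, 20 and 16 calls for replicates 1 to 4 of days 20-25, 164, 38, 47 and 17 for replicates 1 to 4 of the cyclic group, 51, 51 and 52 for replicates 1 to 3 of days 40-45, and 53 for replicate 4 of days 150-160. Among the 30 called genes that the naming rule covers, CATHL4, BNBD-5 and FNDC5 passed whichever of the 16 arrays was left out.

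The probe with the largest change was annotated only as clone ORCS22384, and no gene is assigned to it here. Which RNA it detects was not tested, so its change is not read as that of a gene. It is shown because a reader will want to know what it measures, and none of its bases is capitalised. Its longest run of bases shared with any other probe was 11.
ORCS22384: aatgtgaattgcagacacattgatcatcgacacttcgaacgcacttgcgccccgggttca
Its levels were 4.86, 5.94, 5.25 and 6.12 on the days 20-25 arrays, against 0.33, -2.72, -2.19 and -1.90 on the cyclic arrays. All 4 days 20-25 arrays were far above all 4 cyclic arrays, and cyclic replicate 1 was the highest of its group. The log2 change was 7.16 ± 0.53 (SE), with an adjusted p of 3.24e-05 in limma. The mean level was 5.08 on days 40-45 and 4.64 on days 150-160.

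Among the genes that fell was PLAAT1, a phospholipid-modifying acyltransferase. Its levels were -5.29, -5.42, -7.99 and -6.49 on days 20-25, against -2.44, -1.90, -4.72 and -1.47 in cyclic glands. The groups did not overlap, and PLAAT1 was 12.7-fold lower on days 20-25 (adjusted p = 0.0376, limma). It was well above background on only 2 of the 4 days 20-25 arrays, so the size of that fold is uncertain. For genes well above background on no array of a group, a fold is given below as at least its value, a bound set by the lowest signal well above background on those arrays.

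**Figure D2:**
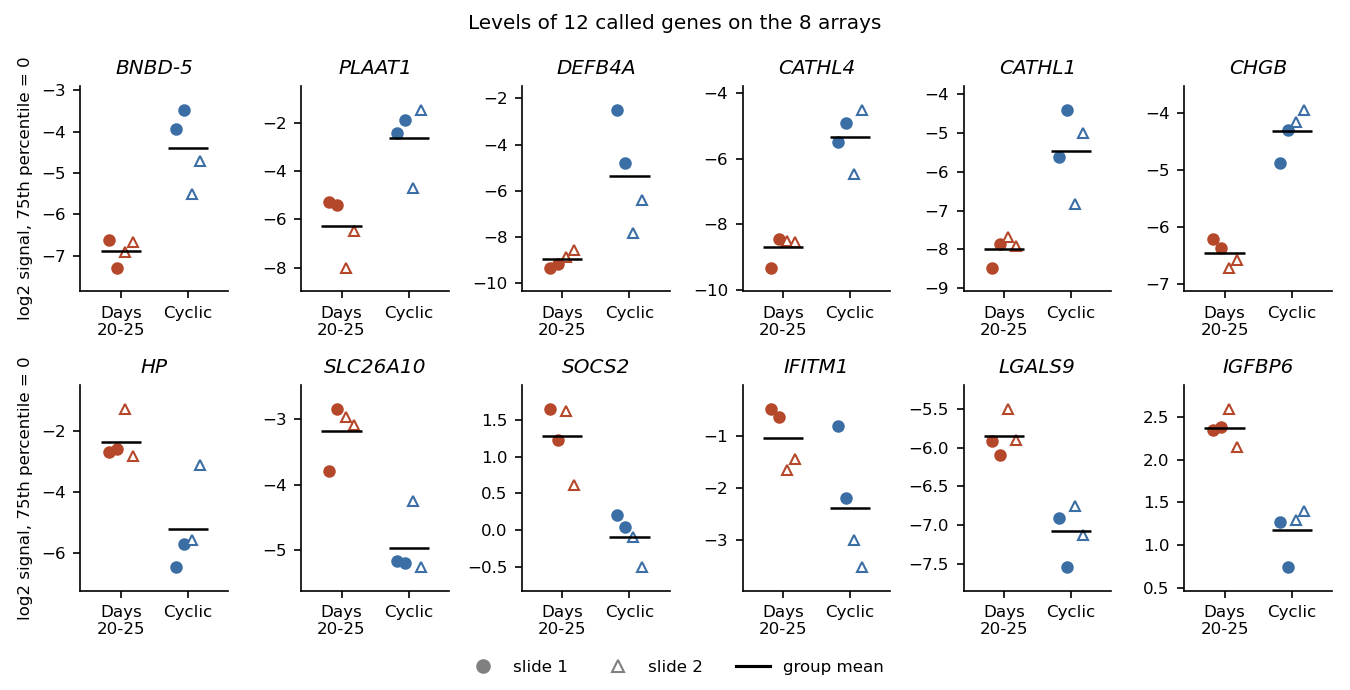
Level of 12 called genes on the 4 days 20-25 arrays (left in each panel) and the 4 cyclic arrays (right), as log2 signal with the 75th percentile of each array at 0; circles are slide 1, triangles slide 2, and black lines group means. The groups are separated in every panel except IFITM1, where cyclic replicate 1 lies among the days 20-25 arrays.

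Antimicrobial peptides of granulocytes made up 5 of the 11 falls among genes with a symbol. Cathelicidins and beta-defensins are stored in neutrophil granules and kill microbes on release. The probes of the beta-defensins are shown because they resemble each other: in the 51 bases that overlap when the sequences are aligned without gaps, 44 were the same, and the 7 that differ are in capitals.
BNBD-5: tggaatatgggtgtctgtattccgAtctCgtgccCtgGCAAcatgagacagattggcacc
DEFB4A: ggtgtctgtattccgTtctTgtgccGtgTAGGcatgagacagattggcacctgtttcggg
RNA of one beta-defensin could therefore be read by the other's probe, and the pair is not counted as independent. BNBD-5 had levels of -6.63, -7.29, -6.91 and -6.67 on days 20-25, against -3.93, -3.47, -5.50 and -4.71 in cyclic glands, and was 5.56-fold lower on days 20-25 (adjusted p = 0.00439, limma). Only 1 of the 4 days 20-25 arrays had BNBD-5 well above background. DEFB4A was at least 2.46-fold lower on days 20-25 (adjusted p = 0.0473), and ranged from -7.83 to -2.49 within the cyclic group.

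CATHL4 had levels of -9.32, -8.44, -8.50 and -8.54 on days 20-25, against -5.48, -4.90, -6.45 and -4.50 in cyclic glands. It was well above background on every cyclic array and on no days 20-25 array, and was at least 2.53-fold lower (adjusted p = 0.000996, limma). CATHL1 was at least 2.31-fold lower (adjusted p = 0.0207). CATHL3 was called lower as well (adjusted p = 0.0282), but no fold can be given, because its cyclic mean of -6.73 did not exceed the detection limit of the days 20-25 arrays. CATHL4 and CATHL3 probes shared a run of at most 12 bases, and CATHL4 and CATHL1 of at most 6.

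Of the 18 tested members of the granulocyte list, 5 were called lower and 0 higher, against 0.187% and 0.511% of the 5867 genes tested, and the median change was -0.81, against 0.03 for all genes. The other 13 were not called and had changes between -0.96 and 0.72. S100A8 and MMP9, named after their values were seen, belong to those 13 and are neither cathelicidins nor defensins. The calcium-binding protein S100A8 changed by -0.31 (SE 0.59) and the gelatinase MMP9 by 0.09 (SE 0.46). The 5 called members were tested through the cyclic group alone, being well above background on too few days 20-25 arrays. Members tested that way can hardly show a rise, so the count and the median partly follow from the filter. With only members well above background on all 8 arrays the median was -0.38. The median of the list was -0.78 within slide 1, -0.32 within slide 2 and -0.64 without uneven areas, and leaving out 1 array gave -1.13 (cyclic replicate 3) to -0.53 (cyclic replicate 4). By array, the median level of the list relative to the cyclic mean was -0.81, -0.77, -0.66 and -0.53 on days 20-25, against -0.09, 0.63, -0.77 and 0.27 in cyclic glands, so cyclic replicate 3 lay among the days 20-25 arrays.

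Other falls belonged to genes of different functions. Chromogranin B (CHGB), a protein of secretory granules, had levels of -6.21, -6.36, -6.71 and -6.57 on days 20-25, against -4.88, -4.30, -4.16 and -3.95 in cyclic glands, and was 4.41-fold lower (adjusted p = 0.0154, limma). Only 2 of the 4 days 20-25 arrays had CHGB well above background, so the size of that fold is uncertain. Its replicate 4 spot lay in the dim area, and without uneven areas the log2 change was -2.11 (adjusted p = 0.0242). NCEH1, which hydrolyses stored cholesterol esters, was 2.48-fold lower (adjusted p = 0.0492, and 0.0567 without uneven areas). ETHE1, a mitochondrial sulfur dioxygenase, was 1.62-fold lower (adjusted p = 0.0476). PRPS1, which makes the sugar phosphate that starts nucleotide synthesis, was 1.59-fold lower (adjusted p = 0.0251).

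Haptoglobin (HP), an acute-phase protein that binds free hemoglobin, had the largest rise among called genes with a symbol. Its probe is given because the call can be traced to it; no base is capitalised.
HP: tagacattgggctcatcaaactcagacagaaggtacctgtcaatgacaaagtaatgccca
HP levels were -2.71, -2.59, -1.29 and -2.83 on days 20-25, against -6.46, -5.72, -5.57 and -3.13 in cyclic glands. The groups did not overlap, but cyclic replicate 4 came close to the lowest days 20-25 array. HP was 7.27-fold higher on days 20-25 (adjusted p = 0.0476 in limma, and 0.0597 without uneven areas).

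SOCS2, which restrains growth hormone and prolactin signalling, had levels of 1.65, 1.23, 1.62 and 0.61 on days 20-25, against 0.21, 0.04, -0.10 and -0.50 in cyclic glands. Each days 20-25 array exceeded each cyclic array, and SOCS2 was 2.58-fold higher (adjusted p = 0.0147, limma). The prolactin receptor gene PRLR had 0.60, 0.16, 1.18 and 1.17 on days 20-25, against -2.06, -2.30, 1.03 and 0.20 in cyclic glands. Its change of 1.56 did not pass (adjusted p = 0.182), and was 2.56 within slide 1 and 0.56 within slide 2. IGFBP6, a binding protein with preference for IGF2, had 2.35, 2.38, 2.59 and 2.15 on days 20-25, against 1.27, 0.75, 1.30 and 1.40 in cyclic glands, and was 2.28-fold higher (adjusted p = 0.0121).

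The sodium-activated potassium channel gene KCNT2 was 2.95-fold higher on days 20-25 (adjusted p = 0.0162, limma), and the anion exchanger family member SLC26A10 was 3.47-fold higher (adjusted p = 0.016). ATP6V1B2, a subunit of the proton pump of lysosomes and secretory vesicles, was 2.25-fold higher (adjusted p = 0.0199). It was the only one of 16 tested subunits of that pump to be called, where 0.511% of all genes were called higher. With that share, a list of this size need not hold a further call. The median of the 16 was 0.02, against 0.03 for all genes. PDE6G, an inhibitory phosphodiesterase subunit best known from photoreceptors, was 2.30-fold higher (adjusted p = 0.0199). FNDC5, the precursor of the secreted peptide irisin, had -3.59, -3.46, -2.96 and -2.32 on days 20-25, against -4.38, -4.43, -3.94 and -4.00 in cyclic glands, and was 2.15-fold higher (adjusted p = 0.0108).

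LMCD1, a LIM-domain cofactor, and HLF, a transcription factor of the clock-controlled PAR family, were 2.92-fold and 2.32-fold higher (adjusted p = 0.0473 and 0.0476 in limma, and 0.05 and 0.0641 without uneven areas). TXK, a T cell kinase, was 2.30-fold higher (adjusted p = 0.0473, and 0.0638 without uneven areas). PLAC8, a small cysteine-rich protein first found in placenta, was 2.49-fold higher by its brighter probe (adjusted p = 0.03) and changed by -0.25 (adjusted p = 0.814) by a dimmer one. A further called probe, of the hypothetical protein MGC128002, shared 50 bases in 1 run with the brighter PLAC8 probe and was 2.65-fold higher, so that these calls are not independent. The 12 called genes that the naming rule leaves out all rose, by 0.51 to 1.08 on the log2 scale.

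Interferon-stimulated effectors were the list with the highest median change of the 42 examined, 0.66 against 0.03 for all genes tested. Of 28 tested members, 23 had a positive change, against 54.9% of all genes, and 4 were called higher (0.511% of all genes) and 0 lower. An unadjusted p under 0.05 was found for 16 higher members (10.5% of all genes) and 2 lower ones (4.67%). With no overlap between the groups, 11 members were higher (5.05% of all genes) and 1 was lower (1.7%). IFITM1 and IFITM3 encode membrane proteins that block virus entry. IFITM3 had levels of 4.62, 4.35, 4.83 and 5.18 on days 20-25, against 3.79, 3.19, 4.16 and 3.37 in cyclic glands, and was 2.17-fold higher (adjusted p = 0.0492, limma). IFITM1 had -0.47, -0.62, -1.64 and -1.44 on days 20-25, against -0.79, -2.19, -3.01 and -3.52 in cyclic glands, and was 2.52-fold higher (adjusted p = 0.0492). The IFITM1 groups overlapped across slides and were apart within each slide. Their probes shared runs of at most 5 bases.

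LGALS9, a secreted lectin that binds lymphocytes, was 2.35-fold higher on days 20-25 (adjusted p = 0.0476, limma), and was well above background on only 2 of the 4 cyclic arrays. EIF2AK2, the kinase that halts translation on double-stranded RNA, had -3.54, -3.58, -3.39 and -3.54 on days 20-25, against -4.23, -4.24, -3.80 and -4.26 in cyclic glands, and was 1.54-fold higher (adjusted p = 0.0473). None of these 4 calls was kept without uneven areas, where their changes were 1.28, 1.06, 1.17 and 0.57 and their adjusted p-values 0.0597, 0.0588, 0.0597 and 0.072 for IFITM1, IFITM3, LGALS9 and EIF2AK2. The median of the list was then 0.70, with 24 positive changes.

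Further members of the list were named after their values were seen. ISG15, a ubiquitin-like modifier, had 2.90, 2.76, 3.20 and 2.99 on days 20-25, against 0.25, 1.00, 2.90 and 2.17 in cyclic glands. The days 20-25 arrays were close together, and cyclic replicate 3 reached their range. The change of 1.38 did not pass (adjusted p = 0.173). OAS1X, an oligoadenylate synthetase, had -1.53, -1.21, -1.10 and -1.30 on days 20-25, against -4.49, -3.27, -2.43 and -3.29 in cyclic glands, with no overlap and an adjusted p of 0.213. OAS2 and IFIT3 had their replicate 4 spot in the dim area: OAS2 had -6.06, -5.87, -5.98 and -8.54 on days 20-25, and its change was 0.14 with that spot and 0.72 without uneven areas, while that of IFIT3 was 0.02 with it and 0.84 without. In all, 5 of the 28 members had such a spot. GBP5, a guanylate-binding protein, went the other way, with -2.42, -3.19, -4.48 and -6.64 on days 20-25, against -2.32, -2.10, -2.71 and -1.92 in cyclic glands. Its change of -1.92 did not pass (adjusted p = 0.232). IFI30, a lysosomal thiol reductase, had 1.00, 1.09, 0.88 and 0.89 on days 20-25, against 1.80, 2.08, 1.33 and 1.68 in cyclic glands, a change of -0.76 with no overlap (adjusted p = 0.0844), or -0.78 without uneven areas, which hold its replicate 4 spot. The median level of the list relative to the cyclic mean was 0.53, 0.54, 0.74 and 0.69 on days 20-25, against -0.14, -0.19, 0.33 and 0.18 in cyclic glands, so that no cyclic array reached a pregnant one. The median change was 0.81 within slide 1 and 0.34 within slide 2, and the direct contrast with days 40-45 had a median of 0.62 over the same genes.

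**Figure D3:**
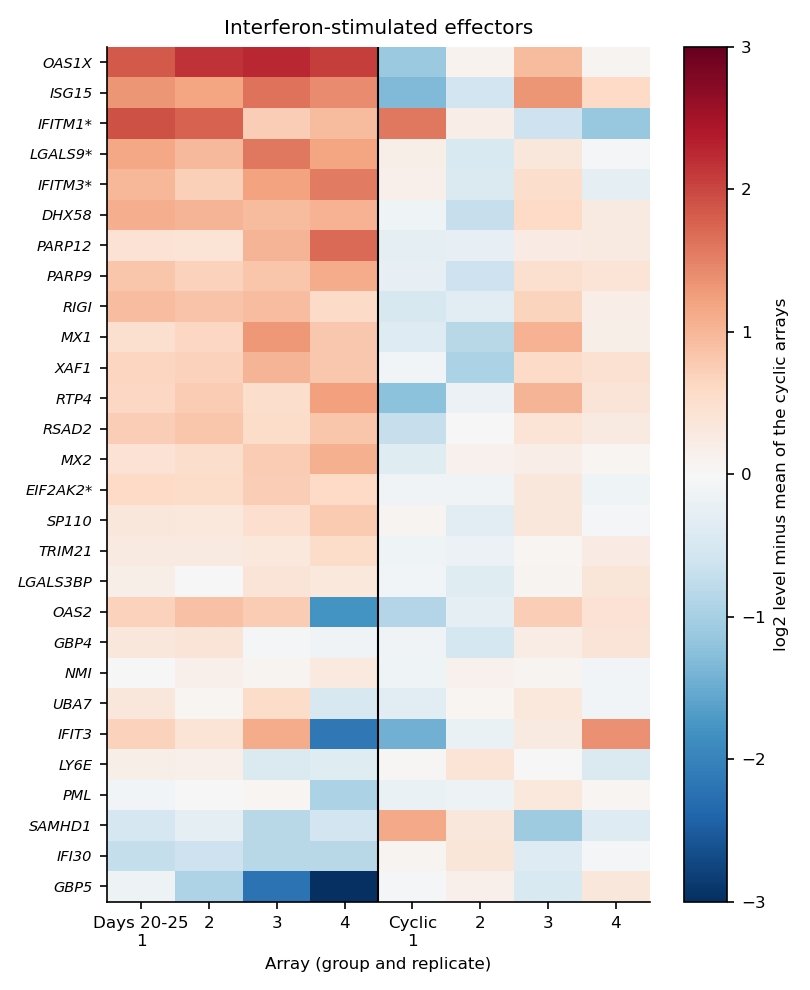
Level of 28 interferon-stimulated effectors on the 4 days 20-25 arrays (left) and the 4 cyclic arrays (right), as log2 difference from the mean of the cyclic arrays (colour), with called genes starred. Most upper rows are red on all 4 days 20-25 arrays, cyclic replicate 3 is red for ISG15 and MX1, and the dark cells of days 20-25 replicate 4 for OAS2 and IFIT3 are spots of its dim area.

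Of 22 endothelial markers tested, 18 had a positive change, against 54.9% of all genes, and 1 was called higher (0.511% of all genes) and 0 lower. The median was 0.40, against 0.03 for all genes (0.41 within slide 1, 0.46 within slide 2 and 0.35 without uneven areas). The called gene was ERG, an endothelial transcription factor, with -3.45, -3.48, -3.53 and -3.47 on days 20-25, against -3.94, -4.06, -4.06 and -4.15 in cyclic glands. ERG was 1.48-fold higher (adjusted p = 0.0473 in limma, and 0.0597 without uneven areas). CD34 had changes in the same direction without passing (0.75, adjusted p = 0.121), as did endoglin, ENG (0.81, adjusted p = 0.137). E-selectin (SELE), which endothelium displays in inflammation, went the other way: it was well above background on no days 20-25 array and on 3 of 4 cyclic arrays, and did not pass (adjusted p = 0.109). FGF1, a heparin-binding growth factor, was 2.07-fold higher (adjusted p = 0.03), and NPR2, the receptor of C-type natriuretic peptide, was 1.54-fold higher (adjusted p = 0.0445). They were the only calls among 23 angiogenic and 18 vasoactive genes tested, where 0.699% of all genes were called.

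Chemokine ligands had no call among 19 tested, where 0.699% of all genes were called. Of the 19, 14 had a negative change, and the median was -0.46 (-0.03 within slide 1, -0.61 within slide 2 and -0.35 without uneven areas). That median depended on single arrays. Leaving out replicate 1 of days 20-25 gave -0.23, and in the cyclic group leaving out replicate 1 gave -0.90 and leaving out replicate 4 gave 0. XCL1, a lymphocyte attractant, had -2.27, -2.17, -3.69 and -3.12 on days 20-25, against 0.91, 1.72, -1.35 and -0.25 in cyclic glands. The groups did not overlap, and the change of -3.07 ± 0.67 (SE) just missed the threshold (adjusted p = 0.0568, limma). The neutrophil attractants GRO1 and CXCL5 had changes of -3.84 and -2.52 (adjusted p = 0.106 and 0.122), and without uneven areas GRO1, whose replicate 4 spot was in the dim area, had -3.37. CCL11, the eosinophil attractant eotaxin, was well above background on 3 days 20-25 arrays and on no cyclic array. Its levels were -5.14, -9.15, -5.99 and -4.00 on days 20-25, against -9.39, -9.22, -9.17 and -9.08 in cyclic glands (adjusted p = 0.138). Immunoglobulin joining chain (JCHAIN), a plasma cell transcript, had a change of -1.32 (adjusted p = 0.0687), with no overlap between the groups. Of the 6 B and plasma cell markers tested, 3 had a negative change and 3 a positive one. The positive ones were CD79A (0.30), BLK (0.47) and XBP1 (0.26). Besides JCHAIN, the negative ones were the immunoglobulin genes IGHM (-0.85) and IGG1C (-1.56). None of the 6 was called, where 0.699% of all genes were called.

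Of 25 steroid synthesis genes tested, 13 had a positive and 12 a negative change, with a median of 0.06. None was called, but with 0.699% of all genes called a list of this size need not hold a call. STAR changed by 0.22 (adjusted p = 0.499, limma), CYP11A1 by -0.03 (adjusted p = 0.896) and HSD3B1, which completes progesterone, by -0.08 (adjusted p = 0.81). Their standard errors were 0.17, 0.10 and 0.15, from the spread pooled over 16 arrays. To be called, a change had to exceed its standard error several-fold. IFITM1, with a change of 1.34 and an SE of 0.28, had an adjusted p of 0.0492 in limma. Smaller differences could therefore have been missed. HSD17B1, which reduces estrone and was named after its values were seen, had -4.51, -4.30, -3.92 and -0.25 on days 20-25, against -3.61, -5.40, -4.76 and -5.06 in cyclic glands, so that replicate 4 alone stood out, and its spot was outside the dim area. PTGFR, the receptor of prostaglandin F2α, lay between 4.02 and 4.11 on days 20-25 and between 3.40 and 4.71 in cyclic glands. LHCGR, the luteinizing hormone receptor, had a change of -1.07 (adjusted p = 0.241), or -0.82 without uneven areas, which hold its replicate 4 spot.

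Over complex I, complexes II to IV and ATP synthase, 73 of 80 tested genes had a negative change and 7 a positive one, with a median of -0.19 against 0.03 for all genes, and none was called in limma. Unadjusted p-values under 0.05 were seen for 16 of the 80, all lower, against 4.67% of all genes, and 6 were lower with no overlap between the groups, against 1.7% of all genes. NDUFB4, a complex I subunit, had 2.47, 2.48, 2.32 and 2.26 on days 20-25, against 2.93, 2.63, 2.80 and 2.76 in cyclic glands, a change of -0.40 (adjusted p = 0.101). The largest change was that of NDUFAB1 at -1.69, a gene named after its values were seen, whose replicate 4 spot lay in the dim area. Its levels were 5.33, 5.36, 5.81 and -0.32 on days 20-25, and the change was -0.18 without uneven areas. Then 4 of the 80 were positive, and the median was -0.21. Within slide 1 the median was -0.13 and within slide 2 -0.25. By array, the median level of complex I relative to the cyclic mean was -0.27, -0.17, -0.13 and -0.16 on days 20-25. In cyclic glands it was 0.05, -0.23, 0.04 and 0.18, so cyclic replicate 2 lay among the days 20-25 arrays. That array also lay among them for complexes II to IV (-0.15) and for ATP synthase (-0.22).

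Cholesterol synthesis had 11 of 12 negative changes and fatty acid oxidation 14 of 19, with medians of -0.24 and -0.30 and no call. Of all genes, 54.9% had a positive change and 0.699% were called. The cholesterol synthesis median was -0.40 without days 20-25 replicate 3 and -0.13 without replicate 4. Mevalonate kinase (MVK) changed by -0.84 (adjusted p = 0.186) and the mitochondrial fatty acid importer CPT1B by -0.87 (adjusted p = 0.132). The levels of CPT1B in the groups did not overlap. Collagens and matrix glycoproteins had 25 of 29 positive changes and a median of 0.23, which was -0.04 within slide 1 and 0.66 within slide 2. Without uneven areas 21 of the 29 were positive (72.4%, against 51.4% of all genes), and the median was 0.23. By array the median level of that list was 0.23, -0.08, -0.01 and 0.67 on days 20-25, against 0.17, 0.26, -0.34 and -0.11 in cyclic glands, so that replicate 4 was the highest. Leaving that array out gave a median change of 0.11, and leaving out cyclic replicate 2 gave 0.39. Proliferation genes had medians of -0.43 within slide 1 and 0.44 within slide 2. The test of the slide by group difference called 0 of 11805 probes (0%) in limma, with 586 at an unadjusted p under 0.05.

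**Figure D4:**
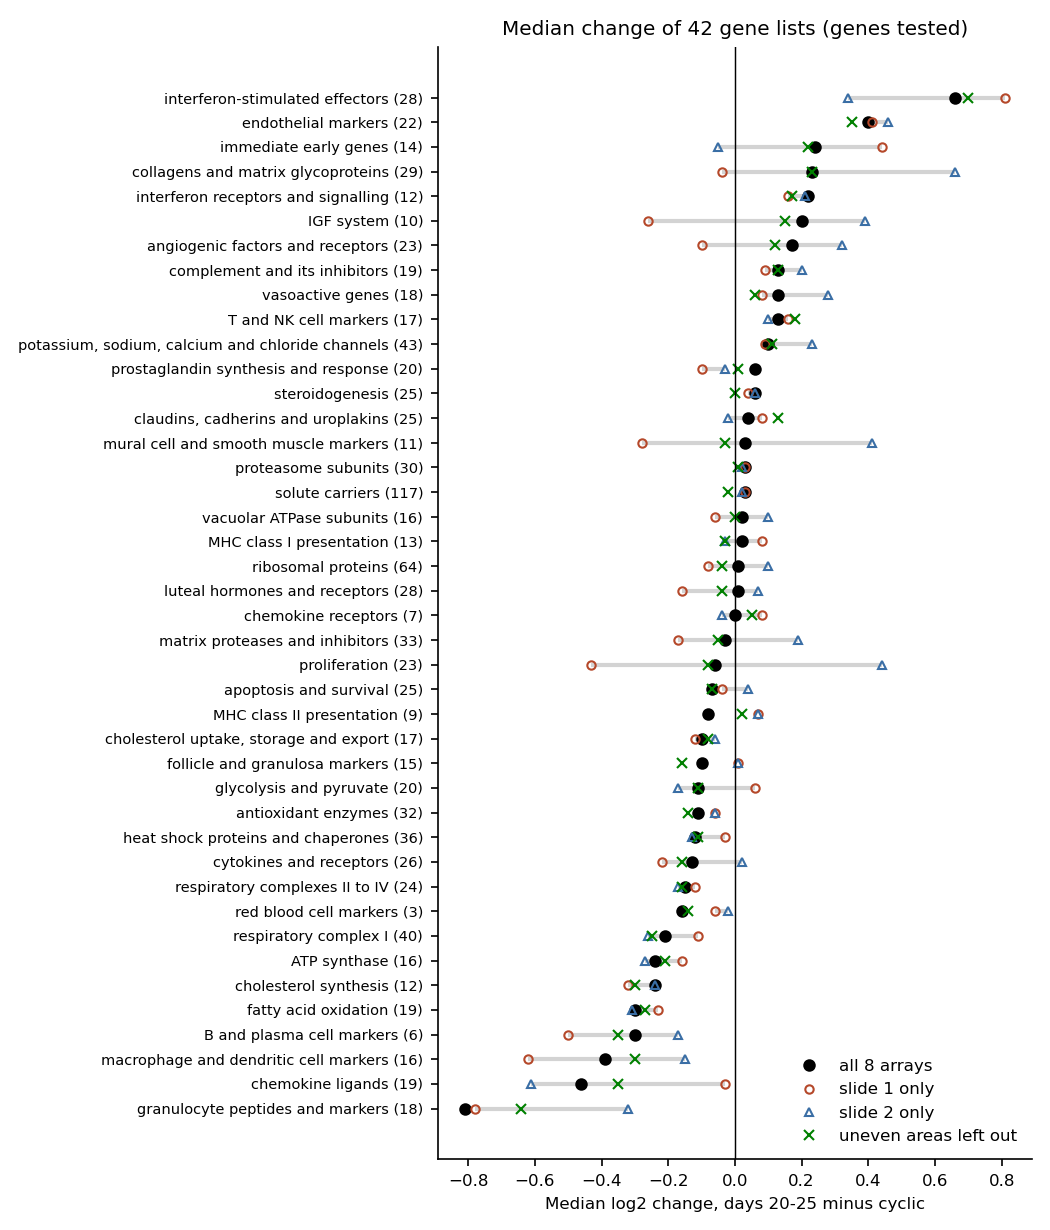
Median log2 change, days 20-25 minus cyclic, of 42 gene lists, with the number of genes tested in brackets; filled points are the fit to all arrays, open circles and triangles slides 1 and 2 alone, joined by a grey line, and crosses the fit without uneven areas. Interferon-stimulated effectors lie highest at 0.66 and granulocyte peptides and markers lowest at -0.81, and for collagens and for proliferation genes the slides lie far apart.

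The neighbouring stage was compared directly with days 40-45. There 7 probes passed (0.0593%), 5 higher and 2 lower on days 20-25. OXT, the oxytocin precursor made by large luteal cells, had 5.03, 5.35, 4.40 and 5.32 on days 20-25, against 0.79, 1.87, 2.35 and 1.99 on days 40-45, a log2 change of 3.27 (adjusted p = 0.0345, limma). In cyclic glands OXT had 6.47, 5.64, 5.04 and 6.03, and the change of days 20-25 against cyclic was -0.77 (adjusted p = 0.408). PTGER3, a receptor of prostaglandin E2, had -4.69, -5.38, -3.99 and -4.22 on days 20-25, against -0.66, -1.64, -1.56 and -1.50 on days 40-45, a change of -3.23 (adjusted p = 0.0353). Estrogen receptor beta (ESR2) was also among the 7, but it was well above background on no array of either group, so neither a size nor a direction is given. FNDC5 changed by 1.04 against days 40-45 (adjusted p = 0.0446), in a comparison that shares the days 20-25 arrays with the one against cyclic glands. Leaving out cyclic replicate 1 gave 9 calls in the comparison with days 40-45, and leaving out any other of the 16 arrays gave 0 to 3.

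**Figure D5:**
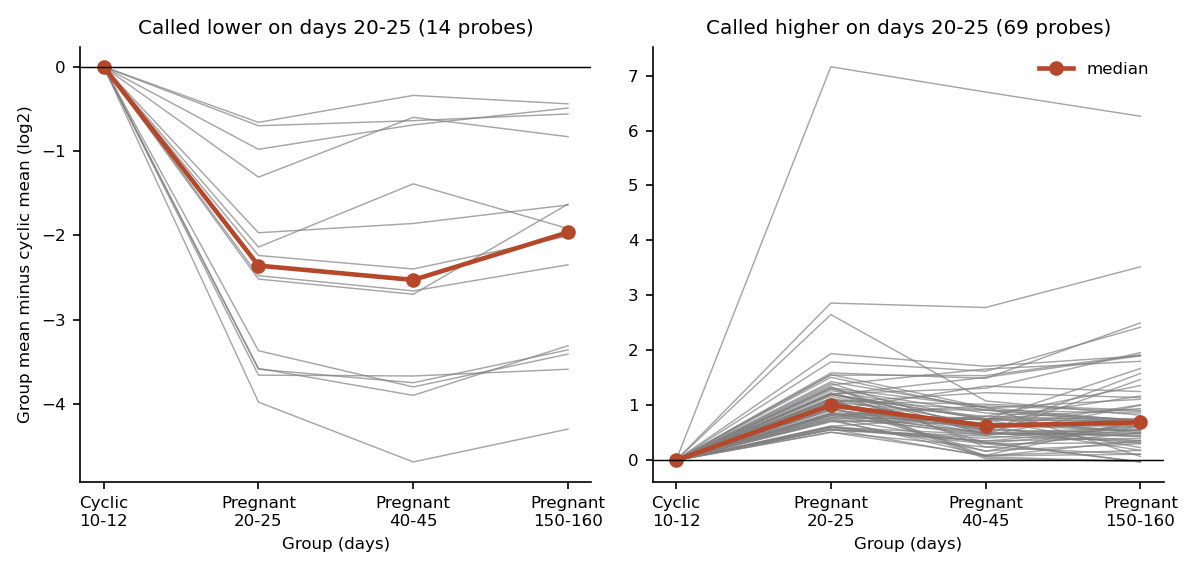
Mean level of the called probes in the 4 groups minus their cyclic mean (log2), for the 14 probes called lower (left) and the 69 called higher (right) on days 20-25; grey lines are probes and the red line their median. All comparisons with cyclic glands share the same 4 cyclic arrays. The probes were selected on days 20-25 against cyclic, which favours a larger median there, so the medians do not measure a trend over stages. On days 20-25, 40-45 and 150-160 they are -2.36, -2.53 and -1.96 for the falls and 1.00, 0.63 and 0.69 for the rises. Of the falls, 7 were well above background on no days 20-25 array.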

How the data were processed

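Signals are the intensity values that Agilent Feature Extraction 9.5, per the submitters' processing notes, wrote after background subtraction, as the authors deposited them in the scanner files. The 536 control spots were left out and 36 spots flagged as outliers were set to missing. The log2 signal minus each array's 75th percentile was used. The deposited value table held the same log2 values minus a constant per array, within 0.0046, with column medians of -3.18 to -2.98, so that its scale is log2 and its centring is not given in the sources used here. Of 15208 probes, 7352 had a symbol through RefSeq names of assembly ARS-UCD2.0 or the files, and 7856 had none. A probe was tested if it was well above background on at least 3 of 4 arrays of either group. limma 3.58.1 in R 4.3.3 fitted group and slide to all 16 arrays (11 residual degrees of freedom), two-sided, with Benjamini-Hochberg adjustment over 11805 probes. For gene lists the probe with the highest mean signal stood for the gene.

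Named were, among called probes with a symbol, the 15 largest rises and up to 15 largest falls, every called list member, up to 4 members of each list described with the smallest p, and always 11 genes (STAR, CYP11A1, HSD3B1, LHCGR, PTGFR, OXT, PRLR, SOCS2, CCL11, XCL1 and PTGER3). The members and lists were chosen with earlier results of these data known. Same-numbered arrays of the 2 groups had correlations of their deviations of 0.15, 0.02, 0.20 and 0.00, so the numbers were not taken to pair samples. Where the lowest signal well above background bounds a group, a fold is given as "at least". The fit was tested on simulated data of 11782 probes for this comparison, where it recovered 68% of changes of 1 log2 unit and 92% of changes of 2 units, with 4 false calls. The simulated noise was independent between probes and arrays, without slide effect, dim area or outlying array. These rates may therefore not hold for the real arrays. The number of arrays limits the precision. Other background corrections, scalings, filters, array weights and blocks, and leaving out each array in turn, were tried as alternatives. Results for some genes that the rule names are not reported here.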

Additional observations from a re-analysis of the deposited data

Results flagged for a closer look

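In 14 of 144 groups of 4 arrays examined, a single array lay farther from the rest than Dixon's critical value for 4 samples allows, and chance alone marks about 1 in 20 such groups. Among called genes these were CATHL4 on days 20-25 replicate 1 (-9.32, a spot not well above background), KCNT2 on days 20-25 replicate 4 (-3.17), HP on days 20-25 replicate 3 (-1.29), EIF2AK2 on cyclic replicate 3 (-3.80) and SLC26A10 on cyclic replicate 3 (-4.25). Among the median levels of gene lists, given relative to the cyclic mean, days 20-25 replicate 4 stood above its group for mural cell markers (0.65), ribosomal proteins (0.34), prostaglandin genes (0.21), steroidogenesis (0.17) and heat shock proteins (0.15). All 5 were on the array with the dim area, whose other spots the scaling raised by 0.18; the part of that shift in these values was not tested. Days 20-25 replicate 1 stood below its group for ATP synthase (-0.29). In the cyclic group, replicate 1 stood apart for luteal hormones and receptors (-0.41) and for solute carriers (-0.15), and replicate 4 for mural cell markers (-0.32).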

How the results depend on the processing

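Of 83 calls in the comparison with cyclic glands, other settings gave 36 without a slide term, 37 with slide as a random block, 0 in the 8 arrays alone with slide and 2 without it, 3 within slide 1, 6 within slide 2, 30 with normexp background correction, 51 without a filter on dim probes and 177 with array weights; leaving out 1 array gave 14 to 164. Against days 40-45 the 7 calls became 4 without a slide term and with normexp, 0 within either slide, 2 with quantile normalization and with values under background raised to it, 3 with median scaling, 12 without a filter and 388 with array weights, and 0 to 9 when 1 array was left out. The slide by group interaction gave 1 call without a filter and 0 to 575 when 1 array was left out, 575 without days 20-25 replicate 3 and 54 without cyclic replicate 2.

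With the replicate block in place of slide, 49 probes were called against cyclic glands and 0 against days 40-45. Same-numbered arrays did not all correlate, so this pairing is by number only.

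Of 1344 list medians recomputed, 1324 moved by less than the spread between replicates. Within slide 1 the medians of mural cell markers (-0.28), angiogenic genes (-0.10), prostaglandin genes (-0.10), the IGF system (-0.26) and glycolysis (0.06) changed sign, as did that of matrix proteases within slide 2 (0.19). Within slide 2 the medians were 0.34 for interferon-stimulated effectors, -0.32 for granulocyte genes, 0.41 for mural cell markers, -0.02 for red blood cell markers, 0.32 for angiogenic genes, 0.28 for vasoactive genes, 0.66 for collagens and 0.23 for ion channels. Normexp gave 0.44 for interferon-stimulated effectors, and the filter on all 8 arrays -0.38 for granulocyte genes. Leaving out 1 array gave 0.28 to 0.45 for endothelial markers, -0.08 to 0.13 for prostaglandin genes, -0.07 to 0.36 for the IGF system and -0.11 to 0.16 for matrix proteases. The lowest prostaglandin and IGF values were those without days 20-25 replicate 4, and the highest matrix protease value that without cyclic replicate 2.

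Of 5770 recomputed changes of the 181 genes that the naming rule covers, 26 changed sign, in 12 genes, none of them called. IFIT3, OAS2 and MMP9, named after their values were seen, lay outside this count and also changed sign. IFIT3 had -1.34 and OAS2 -1.09 within slide 2, and MMP9 had -0.75 within slide 1. Without uneven areas BOLA-DMA (0.04), TYMS (0.04) and CCR8 (0.05) turned. Within slide 1 BOLA-DMA had 0.36, CCR8 0.08, PTGFR 0.40, CDT1 -0.02, MCM5 -0.01, GYPC -0.05 and CCN2 -0.77, and within slide 2 CXCR4 had 0.07, BOLA-DOB 0.17 and CYP11A1 0. TYMS had 0 with array weights, CCR8 0.01 with normexp, and PTGFR 0.08 with quantile normalization and 0 in the value table. With 1 array left out, BOLA-DMA ranged from -1.22 to 0.05, TYMS from -0.32 to 0.04, CCR8 from -0.26 to 0.06, HSD3B1 from -0.14 to 0.05, CYP11A1 from -0.06 to 0 and PTGFR from -0.21 to 0.20. The cause of these changes was not tested. Signal over background limits the falls, of which 7 probes were well above background on no days 20-25 array.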
